A study of Mus musculus with 6 samples.

Results

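The 9 genes described here make the B cell's antigen receptor and the antibody that its descendants secrete: Igkc, Ighm, Ighd, Jchain, Cd79a, Cd79b, Ms4a1, Ebf1 and Mzb1. They were chosen by name and are 9 of the 19848 genes in the RNA table of a CITE-seq study of mouse brain immune cells. CITE-seq reads RNA and antibody tags from the same single cell. All 9 genes were found in the table, and they were followed across the authors' 10 cell classes and across the groups of mice.

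The mice were 24 female C57BL/6 animals, 6 in each of 4 groups: young control and young antibiotic mice at 12 weeks of age, and aged control and aged antibiotic mice at 72 weeks. Control mice received vehicle and kept their gut microbiota, while antibiotic mice had it depleted, and the agents are not named in the labels. Each brain was made into a suspension enriched for immune cells on Percoll, and the 24 suspensions were combined into 12 pools, 3 per group, each marked by a hashtag antibody. The 2 ages ran in separate wells of the 10x instrument, and age and well therefore cannot be told apart. Hashtags 1 to 3 were control and 4 to 6 antibiotic in both wells, so hashtag and treatment cannot be told apart either. The pool was the replicate, written below as pool 1, 2 or 3 of its group in order of hashtag.

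The table held 13052 cells, 6526 per well, and 59 barcodes occurred in both wells. Pools held 760 to 1590 cells with raw totals of 5745242 to 13742781 UMIs, and the median cell had 6931 raw UMIs in the young well and 7041.5 in the aged well. The class the authors named BCells held 244 young and 243 aged cells, with 13 to 126 per pool. Its median raw total was 4701 UMIs in young and 6165 in aged cells, and 5.74% of young against 23.5% of aged BCells had fewer than 2000 raw UMIs. The label was checked against Cd79a, Cd79b, Ms4a1 and Ebf1: at least 1 of the 4 was above 0 in 211 of the 244 young and 185 of the 243 aged cells. The remaining 33 young and 58 aged cells had none of the 4, and 63.8% of those 58 aged cells had fewer than 2000 raw UMIs. Some cells of the class also carried genes of other cells. At least 2 Cd3 genes, which mark T cells, were above 0 in 18 young and 48 aged BCells, and at least 4 of 6 plasmacytoid dendritic cell genes in 19 young and 4 aged BCells. RNA values below are UMI values corrected for depth by the authors' SCTransform step, called corrected values, and the mean over the cells of a pool is the pool's level. A value above 0 in a low-depth cell is not always a read of its own: Ighm was above 0 in 100% of the 269 microglia with fewer than 1000 raw UMIs, and at exactly 1 in 77.7% of them.

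A B cell displays an antibody molecule made of heavy and light chains, and the 2 signalling proteins Cd79a and Cd79b carry the signal into the cell. Naive B cells use the heavy chain constant regions of IgM and IgD, made from Ighm and Ighd, most often with the kappa light chain, whose constant region is Igkc. When a B cell becomes an antibody-secreting plasmablast or plasma cell it makes far more heavy and light chain RNA, adds the J chain (Jchain) that joins secreted IgM or IgA units, raises the endoplasmic reticulum chaperone Mzb1, and turns down much of the B cell programme, including the surface protein CD20 (Ms4a1) and the lineage factor Ebf1. In the brain, B cells lie mostly in the meninges, and antibody-secreting cells have been described there too.

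Promoter sequences are shown for Cd79a and Jchain because these genes stand for the receptor and the secreted side of the set, and Jchain was the member whose levels over the classes were least like those of Cd79a (given last). Each is the 250 bases before the annotated start on the gene's own strand, in the RefSeq annotation of GRCm38.p6 (mm10), 5′ to 3′. Capitals mark CAGGTG, an E-box motif, found by a search of both strands.
Cd79a, chr7:24897247-24897496, plus strand: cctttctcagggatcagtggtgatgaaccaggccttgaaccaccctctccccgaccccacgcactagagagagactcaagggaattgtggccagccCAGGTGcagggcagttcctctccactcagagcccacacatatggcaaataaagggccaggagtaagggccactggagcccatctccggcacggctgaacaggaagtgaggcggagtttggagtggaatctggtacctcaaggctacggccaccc
Jchain, chr5:88527898-88528147, minus strand: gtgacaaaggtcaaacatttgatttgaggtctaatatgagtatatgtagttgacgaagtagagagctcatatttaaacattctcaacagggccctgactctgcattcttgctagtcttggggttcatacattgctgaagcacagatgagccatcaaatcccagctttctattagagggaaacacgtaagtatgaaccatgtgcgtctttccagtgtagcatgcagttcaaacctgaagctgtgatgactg
The E-box letters began 154 bases before the start of Cd79a and were not in the Jchain window. They occur in 17.2% of the 32851 RefSeq windows of this length. The octamer ATGCAAAT, in 1.60% of windows, and the letters CCCNNGGG of an EBF core, in 11.8%, were in neither window. The search took exact letters only and missed any site that differs by a base, so it does not show that a window has no EBF site. Of the 9 genes, 3 had a promoter entry (Jchain, Cd79a and Ebf1). The antibody that reads the B cell surface protein CD45R/B220 carried the 15-base tag cctacacctcataat, and its counts are given below beside the RNA.

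In mm10 the kappa constant region Igkc lies at chr6:70726435-70726754. The heavy chain genes lie side by side, Ighd at chr12:113407535-113416324 and Ighm at chr12:113418826-113422730. Jchain lies at chr5:88519809-88527897, Cd79a at chr7:24897497-24901858, Cd79b at chr11:106311341-106314562, Ms4a1 at chr19:11249679-11266149 and Ebf1 at chr11:44618100-45008096.

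Across classes, 8 of the 9 genes had their highest mean in BCells in both wells. The exception was Jchain, which averaged 0.251 ± 0.259 (SD, n = 6 pools) in aged BCells but 1.12 ± 1.39 in aged CD8+ cells and 0.928 in aged Ly6CHigh cells. Levels are given as the mean over the 6 pools of a well.

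Of the antibody chain genes, Igkc averaged 41.1 ± 9.33 (SD, n = 6 pools) in young and 52.4 ± 24.9 in aged BCells and was above 0 in 77.0% and 78.9% of them. In microglia, the resident macrophages that made up most cells, Igkc averaged 0.102 ± 0.0283 in young pools and 0.900 ± 0.0762 in aged pools, above 0 in 6.84% and 50.5% of cells. Low Igkc values were therefore found across the aged well in cells that are not B cells. Ighm averaged 14.1 ± 1.74 in young and 20.8 ± 10.8 in aged BCells, against 1.49 ± 0.0952 and 1.83 ± 0.426 in microglia, where 72.9% and 77.6% of cells were above 0. Ighd, the IgD heavy chain, averaged 2.74 ± 0.546 in young and 1.43 ± 0.336 in aged BCells, against 0.0451 and 0.0371 in microglia.

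The 2 signalling genes differed outside BCells. Cd79a averaged 13.4 ± 1.64 in young and 10.9 ± 3.10 in aged BCells and was above 0 in only 1.12% of young and 0.782% of aged microglia. Cd79b averaged 7.05 ± 0.564 and 6.26 ± 2.29 in BCells and was above 0 in 21.1% of young and 16.0% of aged microglia. Microglia therefore had Cd79b values in many more cells than Cd79a values. Ms4a1, which codes for CD20, averaged 4.64 ± 0.973 and 3.45 ± 1.28 in BCells, and Ebf1 averaged 7.58 ± 1.28 and 4.94 ± 1.73. Mzb1 averaged 1.56 ± 0.528 in young and 2.54 ± 0.859 in aged BCells, and 0.0052 and 0.0128 in microglia.

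**Figure D1:**
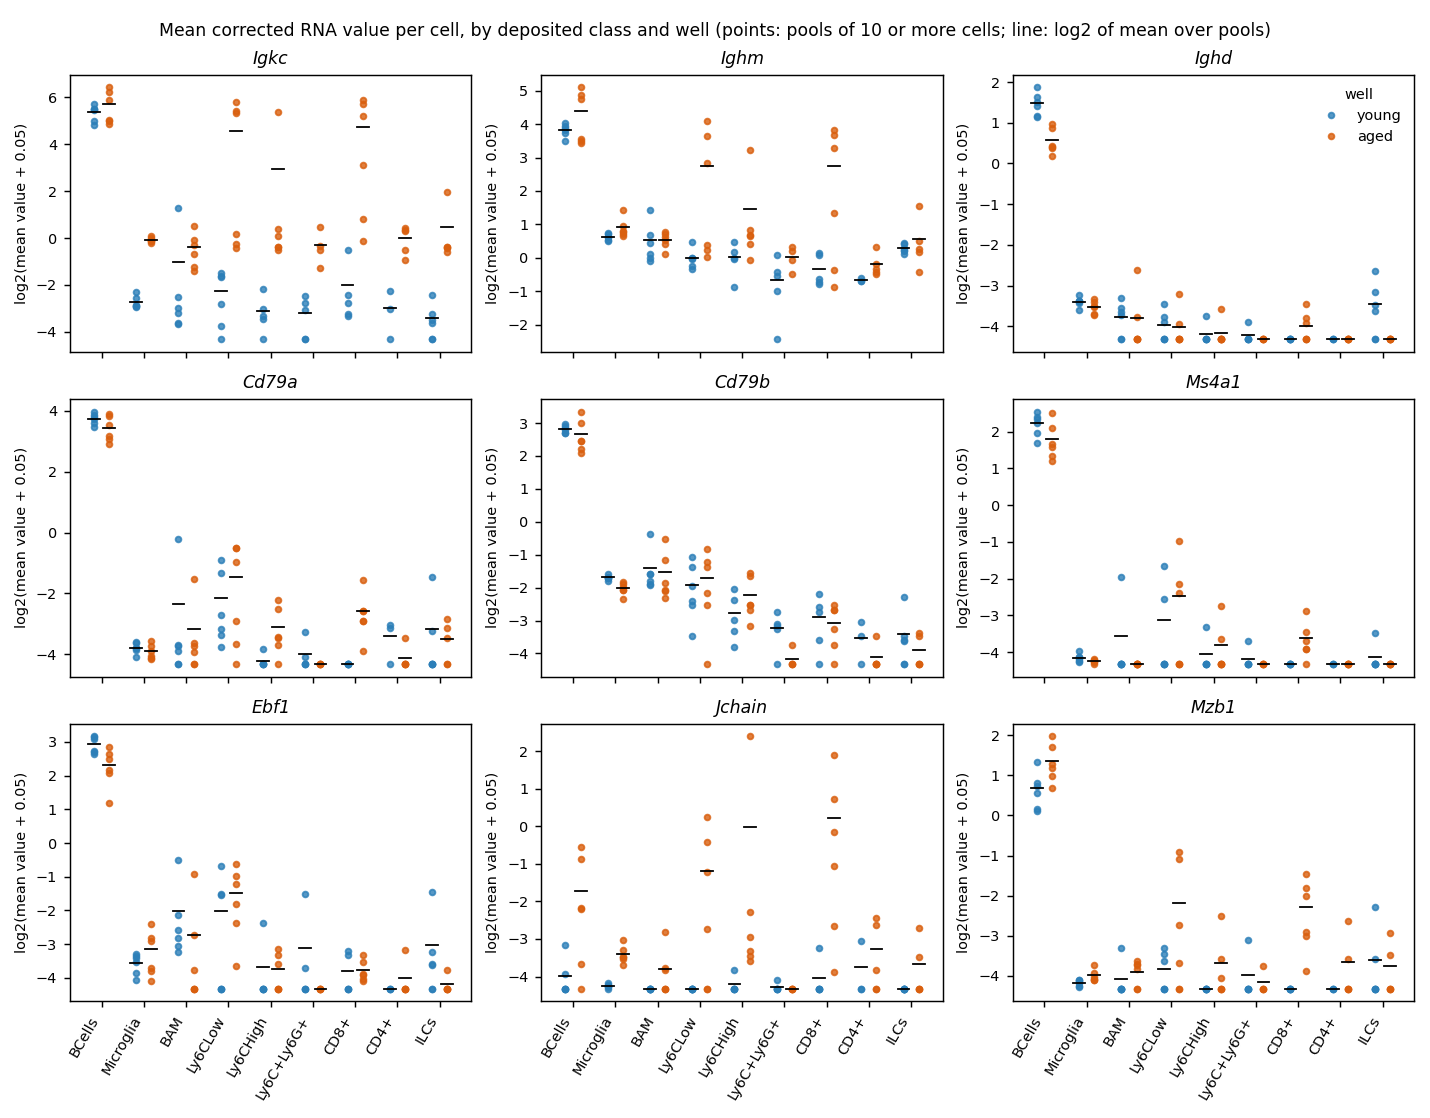
Level of each of the 9 genes by cell class and well, as log2 of the mean corrected value plus 0.05 (vertical axis); points are pools with at least 10 cells of the class and lines are the log2 of the mean over pools. BCells are highest for 8 genes, the aged Igkc mean lies above the young mean in each class drawn, and some aged CD8+ and Ly6CLow pools reach the level of BCells for Igkc.

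Igkc in the other aged classes was uneven over pools. In aged Ly6CLow cells its level was 0.686, 40.8 and 42.7 in the control pools and 1.08, 0.783 and 56.4 in the antibiotic pools, so 3 pools were high and 3 were near the level of microglia. In aged CD8+ cells it was 0.857, 1.73 and 37.1 in control and 59.4, 51.8 and 8.6 in antibiotic pools. In aged ILCs the level was 3.84 in control pool 2 and 0.613 to 1.60 in the other pools. These high pools were those that held the few cells with very high Igkc described below. Among young pools the highest Igkc level outside BCells was 2.38, in BAM of antibiotic pool 3.

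Within BCells, no member passed the test of age. Igkc in BCells was 45.4, 52.4 and 44.8 in the young control pools, 31.5, 28.0 and 44.6 in the young antibiotic pools, 29.1, 86.4 and 75.8 in the aged control pools, and 32.8, 31.9 and 58.6 in the aged antibiotic pools. The aged control pools spread both below and above the young ones, and their group mean was 63.8 ± 30.5 (SD, n = 3) against 47.6 ± 4.20. Ighm was 11.2, 14.6 and 16.2 in young control, 13.3, 14.0 and 15.4 in young antibiotic, 11.3, 29.5 and 27.1 in aged control, and 11.6, 10.7 and 34.4 in aged antibiotic pools. The same aged pools were high for Igkc and for Ighm. Aged control pool 3 and aged antibiotic pool 3 also held the highest Jchain levels in BCells, 0.5 and 0.635.

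Ighd had the smallest unadjusted p of the members for age. Its BCells level was 3.06, 2.17 and 2.21 in young control, 2.62, 3.62 and 2.79 in young antibiotic, 1.30, 1.79 and 1.08 in aged control, and 1.25, 1.91 and 1.27 in aged antibiotic pools. Every aged pool lay below every young pool. In limma over all genes, the difference of aged minus young controls was −0.83 on the log2 scale (SE 0.25) with an adjusted p of 0.246. Of 8383 genes tested in BCells, 5 passed for age (0.0596%), and 0 of the 9 members did. The 5 calls fell to 0 without young control pool 2 or 3 and rose to 13 without aged control pool 2. The other members differed by −0.37 (Ebf1) to 1.48 (Jchain, SE 0.76, adjusted p 0.648). Cd79a, Cd79b and Ms4a1 differed by −0.25, 0.06 and −0.17, and Igkc, Ighm and Mzb1 by 0.28, 0.59 and 0.49.

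The called genes named by rule were no B cell receptor genes. Runx2, a transcription factor that is also high in plasmacytoid dendritic cells, was lower in aged controls by a log2 difference of −3.41 (SE 0.51, limma adjusted p 0.0086). Its level was 0.625, 0.783 and 0.833 in young control pools and 0, 0 and 0.115 in aged control pools. The ages overlapped in the antibiotic pools, at 0.385, 0.538 and 0.206 in young and 0.5, 0.206 and 0.135 in aged mice. BCells with at least 4 of 6 plasmacytoid dendritic cell genes numbered 3 in each young control pool and 0 in each aged control pool. They numbered 3, 1 and 6 in the young and 3, 0 and 1 in the aged antibiotic pools. Their part in the result was not tested. The 6 genes include Runx2 and Cox6a2, both called lower here, so this count is not separate from the Runx2 result. Of the 19 such young cells, 19 had Ighm above 0, 9 had Mzb1, 6 had Igkc and 3 had Cd79a. Ube2c, a cell division gene, was higher by 3.95 (SE 0.62, limma adjusted p 0.00966), with a level of 0 in all 3 young control pools and 0.933, 1.07 and 0.365 in the aged control pools. Few cells lay behind these aged levels, with Ube2c above 0 in 6 of 30, 1 of 29 and 4 of 52 BCells. Young antibiotic pool 3 had it above 0 in 10 of 126 BCells, at a level of 0.262. The aged antibiotic pools were at 0.5, 0.176 and 0.541.

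For antibiotics, no gene passed in BCells in the young mice, in the aged mice, over both ages or for the difference between ages (limma, 0% of 8383 genes in each), while 453, 230, 330 and 328 genes had an unadjusted p under 0.05. Over both ages, the members with the smallest p were Igkc, at −0.51 on the log2 scale (SE 0.20, p 0.0178, limma adjusted p 0.994), Mzb1, at −0.49 (p 0.0213), and Cd79a, at −0.31 (p 0.0349). Mzb1 was 1.63, 2.48 and 1.71 in young control, 1.04, 1.08 and 1.43 in young antibiotic, 1.57, 3.21 and 3.88 in aged control, and 2.21, 1.94 and 2.41 in aged antibiotic pools. The young antibiotic pools all lay below the young controls, while the aged arms overlapped. Cd79a was 13.3, 14.4 and 15.7 in young control, 11, 12.2 and 13.8 in young antibiotic, 8.40, 14.2 and 14.8 in aged control, and 7.42, 11.5 and 9.07 in aged antibiotic pools. Its arms overlapped in both wells.

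**Figure D2:**
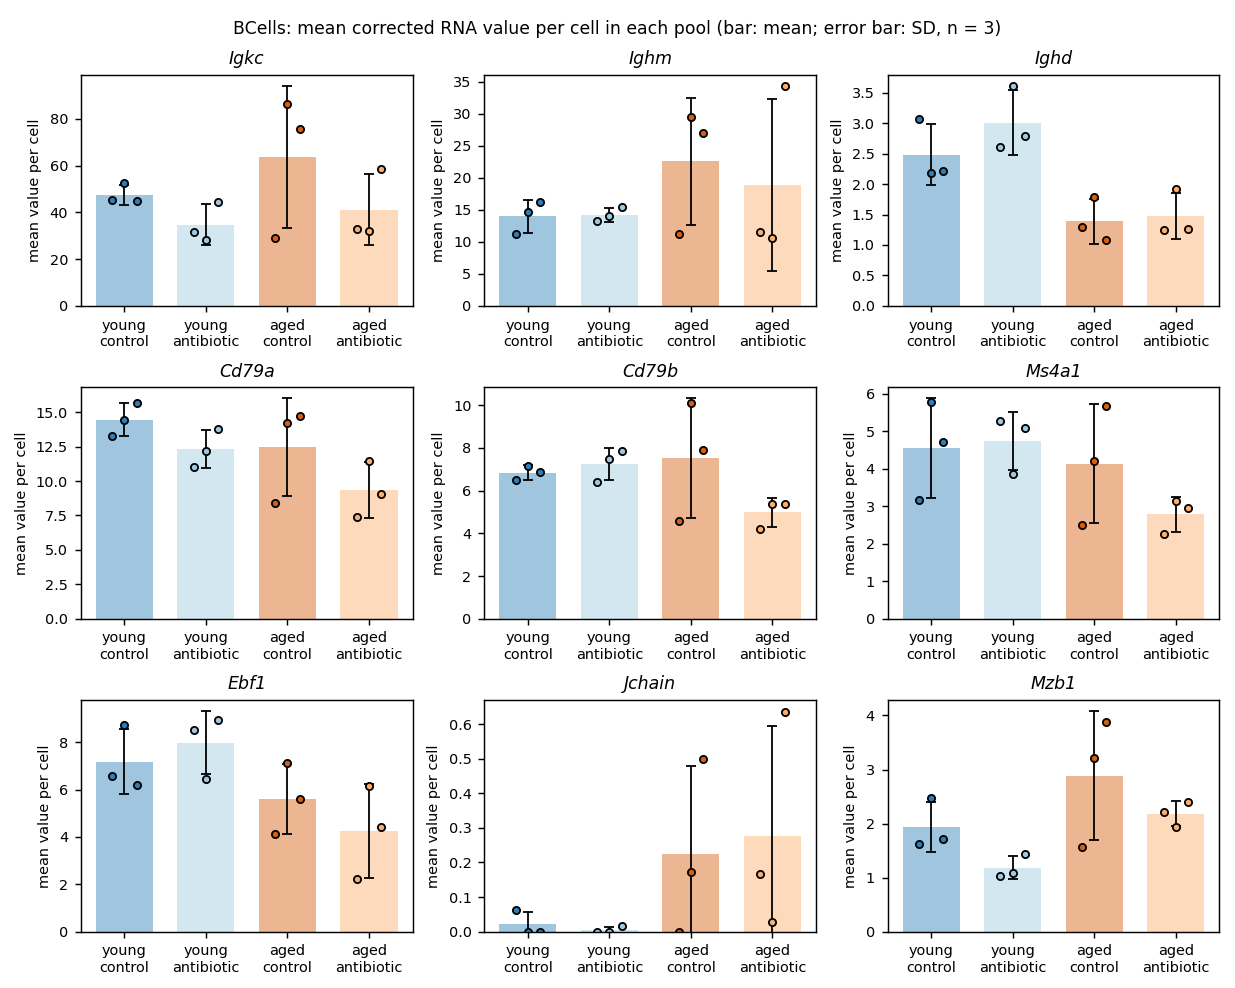
Mean corrected value of each member in BCells by group; bars are the mean of 3 pools, error bars the SD, and points the pools. Ighd lies lower in all 6 aged pools, and the aged groups have a wide spread for Igkc and Ighm, with pools from 29.1 to 86.4 for Igkc.

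The remaining receptor and lineage genes had no call. Cd79b was 6.50, 7.17 and 6.88 in young control, 6.42, 7.46 and 7.87 in young antibiotic, 4.57, 10.1 and 7.92 in aged control, and 4.21, 5.38 and 5.38 in aged antibiotic pools. All 3 aged antibiotic pools were below every young pool, and the aged control pools lay on both sides. Ms4a1 ran from 3.16 to 5.78 in young and from 2.25 to 5.67 in aged pools. Ebf1 ran from 6.21 to 8.94 in young and from 2.21 to 7.10 in aged pools. Jchain was 0 in 4 of the 6 young pools and 1 of the 6 aged pools.

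The share of BCells with a value above 0 gave a second view of the same pools. Ighd was above 0 in 63.0% ± 6.97 (SD, n = 6 pools) of young and 41.0% ± 7.71 of aged BCells, a difference of −22.1 percentage points with an exact permutation p of 0.005, the smallest the 400 arrangements can give. The pools did not overlap, at 53.8% to 70.8% in young and 33.3% to 52.9% in aged. Across all genes, 8.47% of 11101 had an exact p under 0.05, 1.44% reached 0.005, and none passed after adjustment over all genes (0.347 for Ighd). Of the members, 1 of 9 was under 0.05. Depth moved with this result: among BCells with at least 2000 raw UMIs the difference was −10.9 points (exact p 0.08). After every cell was thinned to a corrected total of 4000, which left out 86 young and 83 aged cells, it was −2.48 (exact p 0.72). The thinning drew from corrected values and not from raw UMIs, so it did not equalise raw depth. Mzb1 was above 0 in 58.9% of aged against 54.4% of young BCells (exact p 0.475), and the difference was 16.5 points among BCells with at least 2000 raw UMIs (exact p 0.005). The Igkc share also had an exact p under 0.05 for age in those deeper BCells, beside 10.6% of all genes. Jchain was above 0 in 4.81% of aged against 0.653% of young BCells, with an exact p of 0.05, and the p was 0.01 without aged control pool 1.

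For antibiotics, 2.98% of genes had an exact p under 0.05 for this share. Mzb1, the 1 of 9 members among them, was above 0 in 49.2% of antibiotic and 64.1% of control BCells as a mean over pools (exact p 0.04, adjusted p over all genes 1). With 1 pool left out at a time, 0 members were under 0.05 for 9 of the 12 pools, and the share over all genes was not computed for these runs.

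The pathway around the receptor was read from lists chosen for this tissue. Of 21 genes of B cell receptor signalling, 0 passed for age in BCells, and their median log2 difference was 0.23 beside 0.08 for all genes tested. Cd72, an inhibitory co-receptor, had a log2 difference of 1.06 (limma adjusted p 0.12), and Cd81, a tetraspanin of the B cell surface, 0.42. Ptpn6, a phosphatase that dampens the signal, had 0.03, and the adaptor Bank1 0.24. Of 10 lineage transcription factors 0 passed, with a median of −0.20, and Irf8 was at −1.0 (adjusted p 0.328), Mef2c at −0.21, Pax5 at −0.20 and Spib at −0.20. Of 10 further B cell markers 0 passed, with a median of 0.23, and Ly6d, a surface protein of the lineage, was at −0.86 (adjusted p 0.0637). Of 8 genes of mature naive cells 0 passed, with a median of −0.66.

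No list on maturation stage had a called member either. Of the early B cell genes, 6 of 10 were tested and 0 passed (median 0.30), and of the plasma cell genes 8 of 10 were tested and 0 passed (median 0.21). At least 2 plasma cell genes were above 0 in 79.0% ± 8.54 of aged and 69.3% ± 13.4 of young BCells (exact permutation p 0.16), and at least 2 early genes in 13.7% ± 8.16 and 14.0% ± 6.22 (exact p 0.94). The 5 tested genes of the other immunoglobulin constant regions had a median of 0.24 with 0 called. For antibiotics over both ages, 0 genes of any list passed, with medians of −0.07 for receptor signalling, −0.18 for the lineage factors and −0.15 for B cell markers.

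Marker genes of other cells were also followed in BCells. The plasmacytoid dendritic cell list had 2 of 8 genes called lower in aged controls (Runx2 and Cox6a2), with a median of −2.91. None of the T cell, microglia, neutrophil, erythroid or mural and endothelial genes tested passed, with medians of 1.67, 0.88, −0.21, 1.32 and 0.16. The summed T cell level ran from 0.348 to 6.69 in young and from 1.83 to 9.88 in aged BCells pools, beside 39.1 and 36.8 in the CD8+ class of the 2 wells. The summed neutrophil level ran from 1.67 to 160 in young and from 1.10 to 174 in aged pools. Their part in the levels of the 9 members was not tested.

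Outside BCells, Igkc and Cd79b were the only members to pass the test of age in controls. In microglia, 233 of 8759 genes passed (2.66%), and 3 of the 9 members were high enough to be tested. Igkc rose by 2.64 on the log2 scale (SE 0.13, limma adjusted p 3.83e-10). Its level in microglia was 0.0856, 0.0885 and 0.151 in young control, 0.0856, 0.0788 and 0.121 in young antibiotic, 0.888, 0.862 and 1.02 in aged control, and 0.862, 0.959 and 0.808 in aged antibiotic pools. The 2 wells did not overlap, and the lowest aged pool stood above every young pool by a wide margin. Markers of other cells moved in the same microglia: 5 of the 7 neutrophil genes tested were called lower in aged controls (Camp, Ltf, Ngp, S100a8 and S100a9), with a list median of −2.15. The summed level of the 8 neutrophil genes ran from 2.42 to 21.6 in young and from 0.670 to 3.11 in aged microglia pools, with no gene of the list at 0 in either well. The summed level of 8 T cell genes ran from 0.0261 to 0.0488 in young and from 0.0895 to 0.237 in aged pools. Their part in the Igkc result was not tested. Cd79b fell by 0.42 (SE 0.10, adjusted p 0.0294), from 0.259, 0.256 and 0.265 in young control pools to 0.148, 0.187 and 0.217 in aged control pools. That call was lost when any 1 of aged control pools 1 and 2 or the 3 young control pools was left out (adjusted p up to 0.172). Ighm had a difference of 0.40 (SE 0.11, adjusted p 0.0623).

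For antibiotics over both ages, 473 of 8759 genes passed in microglia (5.4%) and none of the 3 members, at −0.09 for Igkc and −0.21 for Ighm (adjusted p 0.116). When the antibiotic effects of the 2 ages were compared with each other, 0 genes passed in limma (0%), and 579 had an unadjusted p under 0.05.

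In the other classes the direction for Igkc was the same, with fewer cells behind it. In ILCs, 76 of 8335 genes passed (0.912%), Igkc among them, with a rise of 4.14 (SE 0.59, limma adjusted p 0.000519). In Ly6CLow cells, 65 of 8613 genes passed (0.755%), and Igkc rose by 6.62 (SE 1.39, adjusted p 0.0312). Leaving out aged control pool 2 or 3 or young control pool 2 or 3 ended that call, with adjusted p from 0.0513 to 0.165. It was also lost among Ly6CLow cells with at least 2000 raw UMIs (adjusted p 0.955), and without the 15 cells described next the rise was 3.98 (adjusted p 0.00264). Igkc did not pass in CD8+ cells (3.61, adjusted p 0.230; 0.241% of genes called), BAM (2.18, 0.677; 0.0447%), Ly6CHigh (3.72, 0.223; 0%) or Ly6C+Ly6G+ cells (2.75, 0.997; 0%). In Ly6CHigh and Ly6C+Ly6G+ cells 0 genes passed in limma, and Igkc had an unadjusted p of 0.000495 in the latter. Igkc passed in Ly6CHigh cells without aged antibiotic pool 1 (adjusted p 0.00195) and in BAM without young antibiotic pool 3 (adjusted p 0.0236), the pools with the highest Igkc level of their well in these classes.

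A small number of aged cells held most of the Igkc and Jchain of the aged well. A cell was called immunoglobulin-rich if Jchain was at least 3 and Igkc at least 100, a rule chosen after the values were seen, so the description of these cells carries no test. There were 15 such cells among 6526 aged cells (0.230%) and 0 among 6526 young cells, which allows a share of up to 0.0460%. They held 63.1% of the summed Igkc of the aged well, 82.5% of its Jchain, 38.2% of its Ighm and 14.0% of its Mzb1. Their part was 13.5% for Iglc1, 12.9% for Iglc2, 10.5% for Iglc3 and 0% for Ighg2b. Aged control pools 1, 2 and 3 held 0, 2 and 6 of them, and aged antibiotic pools 3, 1 and 3.

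The rule itself sets Igkc and Jchain high in these cells. Igkc ran from 173 to 5595 (median 1925), Ighm from 180 to 1164 (median 543) and Jchain from 4 to 350 (median 46). Mzb1 was above 0 in all 15, with a median of 7. Ighd was at 0 in 14 of 15 cells, Ms4a1 was above 0 in 5 and at most 3, and Ebf1 was above 0 in 4. Cd79a and Cd79b were each above 0 in 12, or 80.0%, with highest values of 17 and 9, beside 68.9% and 71.0% of the other aged BCells. Of the plasma cell genes, the secretory pathway regulator Xbp1 was above 0 in 15, the signal peptidase subunit Sec11c in 15, the disulfide isomerase Txndc5 in 12, syndecan-1 (Sdc1) and Prdm1 in 10 each, and the receptor BCMA (Tnfrsf17) in 2. Several of these genes were common elsewhere: outside BCells, the other aged cells were above 0 for Xbp1 in 57.1%, Sec11c in 75.0%, Txndc5 in 20.2%, Tnfrsf17 in 11.9% and Prdm1 in 10.8%, but for Sdc1 in 0.207%. The 15 cells were also deeper, as given below, and the part of depth in these counts was not tested. Each cell had 2 to 9 of the 10 plasma cell genes, with a median of 7.

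These cells sat in several of the authors' classes. Of the 15, 6 were labelled CD8+, 4 Ly6CLow, 2 BCells, and 1 each Ly6CHigh, ILCs and Microglia. The antibody tags followed the class in some of these cells only. The 6 labelled CD8+ had 46 to 224 CD8a tags, with 6 to 114 CD11b tags. The 4 labelled Ly6CLow had 245 to 411 CD11b tags with 0 to 2 CD8a tags. The 2 labelled BCells had 81 and 142 CD8a tags and 67 and 112 CD11b tags, beside 8 and 4 B220 tags. Their raw totals ran from 746 to 67306 UMIs with a median of 23037, and 12 of the 15 had at least 10000, while the median of all aged cells was 7041.5. All 13052 deposited cells were called singlets by the authors, and whether 2 cells shared a droplet was not tested. The Ly6CHigh cell had only 746 raw UMIs, fewer than its corrected Igkc value of 976.

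The variable genes differed between these cells. The highest kappa variable gene was Igkv4-55 in 6 cells and Igkv12-44 or Igkv8-24 in 2 each, and the highest heavy variable gene was Ighv1-53 in 5 and Ighv1-74 in 2. The pair of Igkv4-55 and Ighv1-53 occurred in 3 cells, and Igkv12-44 with Ighv1-74 in 2, both of aged antibiotic pool 3. The table listed 27 Igkv, 21 Ighv and 3 Iglv genes. Near-identical variable genes can share reads, so these names are uncertain. In BCells, the variable genes with the highest means were above 0 in few cells, Iglv1 in 8 young and 12 aged cells and Igkv12-46 in 2 and 11.

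**Figure D3:**
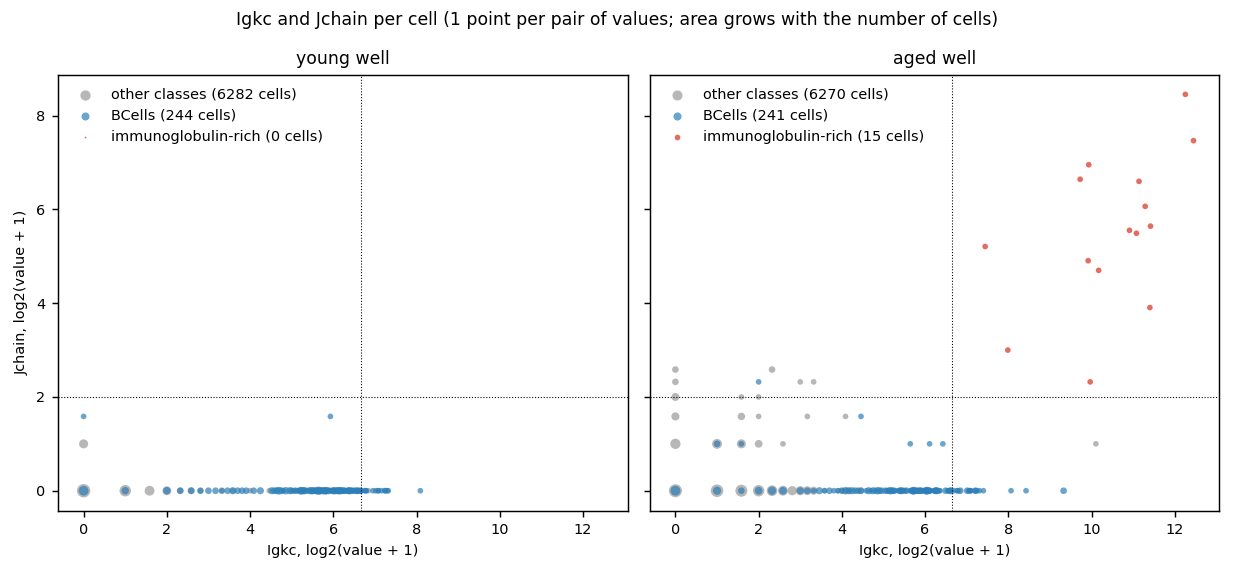
Igkc against Jchain in single cells of the young and aged wells, both as log2 of the corrected value plus 1; point area grows with the number of cells at the same values, and dotted lines mark Igkc of 100 and Jchain of 3. The 15 aged cells past both lines are in red, and no young cell is there.

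Cells just outside the rule show where it divides them. An aged cell of another class had an Igkc of 1100 with a Jchain of 1, and an aged BCells cell had an Igkc of 642 with a Jchain of 0. The highest young Igkc was 272 in BCells and 114 elsewhere. Over all aged cells of a class, leaving the 15 out moved mean Igkc from 30.0 to 3.14 in CD8+ cells and from 26.6 to 1.84 in Ly6CLow cells, and in BCells from 55.7 to 43.4. Mean Jchain in aged BCells moved from 0.342 to 0.0498, and Ighm from 23.8 to 17.9.

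High values were then separated from low ones in every class. A value was called high if it exceeded the 99th percentile of that gene in the microglia of the same well and was at least 3. Igkc was high in 197 young and 162 aged BCells, Cd79a in 196 and 166, Ebf1 in 190 and 133, Ighd in 108 and 50, and Mzb1 in 66 and 91. Outside BCells, high values were rare: Igkc in 29 young and 98 aged cells, Cd79a in 14 and 33, Ms4a1 in 4 and 8, Mzb1 in 4 and 24 and Jchain in 0 and 29. Of the 98 aged cells with high Igkc, 45 had at least 2000 raw UMIs, as had 12 of the 29 with high Jchain. As a share of cells per pool, high Igkc made up 1.5% ± 0.515 (SD, n = 6 pools) in aged and 0.430% ± 0.213 in young pools, high Jchain 0.452% ± 0.166 and 0%, and high Mzb1 0.363% ± 0.207 and 0.0575% ± 0.0470. Each of these 3 had an exact permutation p of 0.005 (adjusted over all genes 0.0952), while 15.9% of 11821 genes had an exact p under 0.05 and 5.25% reached 0.005. The Igkc difference of 1.07 points depended on the cut, at 0.334 (exact p 0.115) above the stricter percentile used as an alternative and 0.420 (exact p 0.05) for values of at least 10. Mzb1 was at 0.102 (exact p 0.05) for values of at least 10. The other 6 members had exact p from 0.06 to 0.895. For antibiotics 0 of 9 members were under 0.05, beside 4.9% of genes.

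Some of the high cells carried several B cell genes. At least 3 of 6 B cell genes were above 0 in 75 young and 74 aged cells outside BCells. The 6 were Cd79a, Cd79b, Ms4a1, Ebf1, Ighm and Ighd, and Ighm was above 0 in most cells outside BCells (given below). Microglia made up 63 of the 75 and 47 of the 74. High Cd79a was found in 12 of the 75 and 27 of the 74, with 5 microglia among them in each well. At least 2 of 6 other B cell genes, none of them members, were above 0 in 10 of the 12 and 15 of the 27. Ebf1, which is also a factor of pericytes and fibroblasts, was high in 53 cells outside BCells. In 26 of them at least 3 of the 6 genes listed first were present. Cd79a was above 0 in 22 of the 26, but Cd79a and Ebf1 are both among those 6. The split itself therefore shapes the Cd79a counts. In the other 27 cells Cd79a was above 0 in 1, and 15 (55.6%) had at least 2 mural or endothelial genes, against 4.73% of the cells outside BCells without high Ebf1.

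The surface protein B220 was read by its own antibody. Its median was 40 tags in young and 9 in aged BCells, against 4 to 10 in the other young classes and 1 to 2 in the other aged classes. A deposited label names cells outside this class as negative for B220, so these tags may have been used to define it and are given as description. The immunoglobulin-rich cells labelled CD8+ had 0 to 6 B220 tags and those labelled Ly6CLow had 1 to 7.

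Low values outside BCells changed with the well, and not in the same way for each gene. The share of cells outside BCells with Igkc above 0 was 6.67% ± 0.307 (SD, n = 6 pools) in young and 49.0% ± 2.18 in aged pools, with ranges of 6.12% to 7.06% and 46.9% to 53.0%. Jchain was above 0 in 0.254% ± 0.176 and 3.05% ± 0.346, and Mzb1 in 0.410% ± 0.198 and 1.15% ± 0.339. Cd79b went the other way, from 18.8% ± 1.52 in young to 13.3% ± 1.21 in aged pools. For each of these 4 genes the pools of the 2 wells did not overlap and the exact permutation p was 0.005 (adjusted over all genes 0.0673).

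That p has to be read against the whole table, since 23.2% of 17236 genes had an exact p under 0.05 and 7.43% reached 0.005. Of the 9 members, 5 were under 0.05, the fifth being Ighd, lower at 2.59% ± 0.883 against 3.59% ± 0.329 (exact p 0.035). Without young control pool 3, young antibiotic pool 1 or 3, or aged control pool 2, the exact p for Ighd was 0.05 to 0.07. Cd79a was above 0 in 1.27% of aged against 1.32% of young cells (exact p 0.825), Ms4a1 in 0.538% and 0.480% (0.72), Ebf1 in 1.47% and 1.83% (0.125) and Ighm in 70.9% and 68.2% (0.235). With each cell thinned to a corrected total of 4000, leaving out 788 young and 1259 aged cells, Igkc was above 0 in 3.94% of young and 32.8% of aged cells. For Cd79b values of at least 2 the difference was −0.740 points (exact p 0.115). For antibiotics the exact p of the members ran from 0.075 to 0.93 and 0 of 9 were under 0.05, beside 9.75% of genes.

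**Figure D4:**
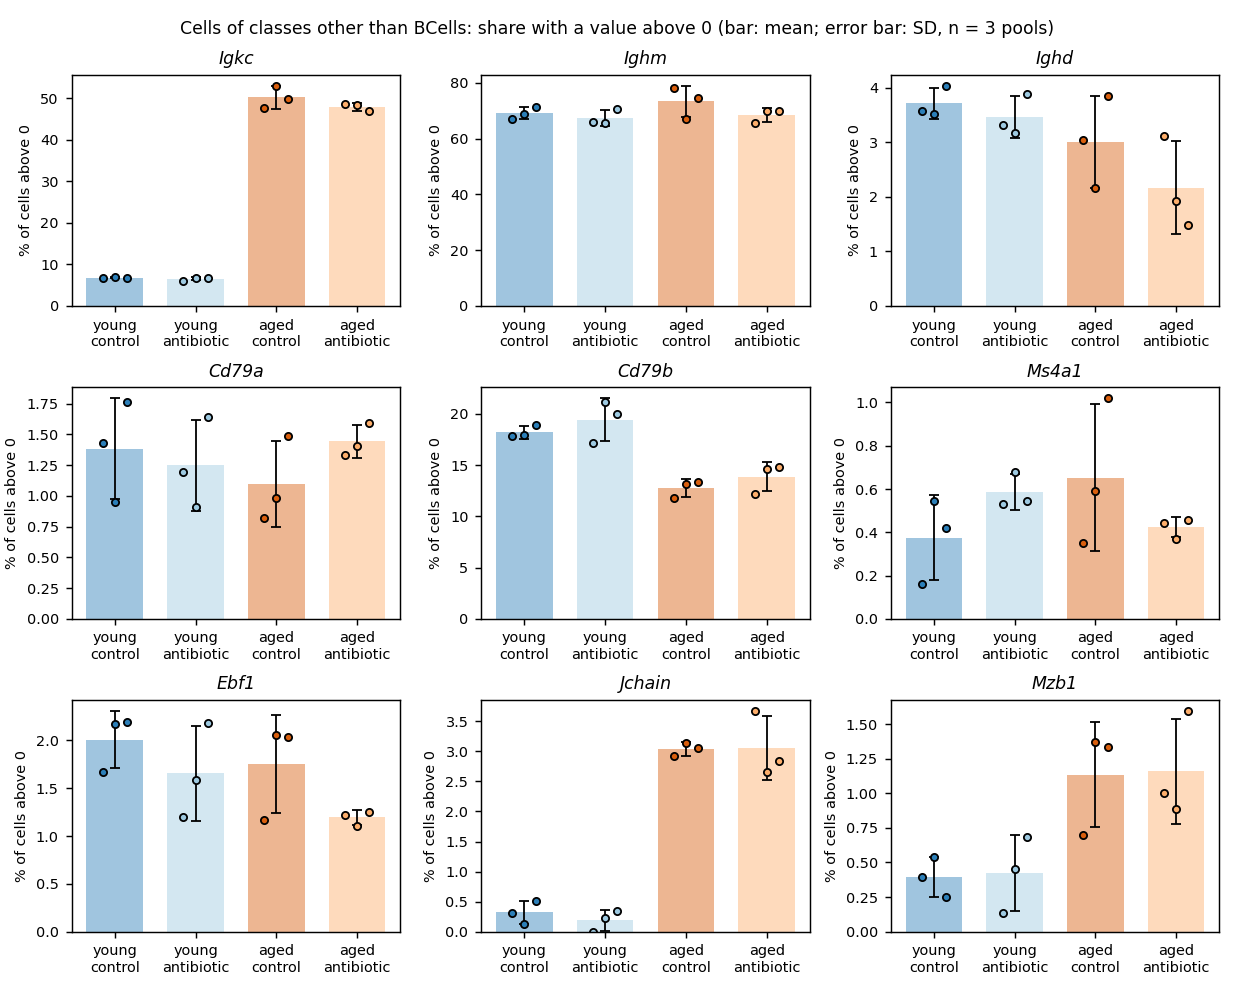
Percent of cells outside BCells with each member above 0, by group; bars are the mean of 3 pools, error bars the SD and points the pools. Igkc stands at 46.9% to 53.0% in all aged pools and below 7.1% in all young pools, and Cd79b is lower in the aged pools.

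The amounts behind these shares were compared in cells outside BCells without a high value of any member, 6180 young and 6095 aged cells. The lowest Igkc value called high was 3 in the young and 6 in the aged well, so the 2 sums stop at different values. Per 1000 cells, Igkc summed to 69.4 in young and 791 in aged cells, 11.4 times as much. With the higher cut of each gene in both wells it was 9.92 times as much, and with the lower cut 8.26 times. Under these same cuts Jchain was 9.5 and 9.86 times as high, and Mzb1 2.26 and 2.08 times. Jchain summed to 2.91 and 27.6, or 9.46 times as much, and Mzb1 to 2.91 and 6.56, or 2.25 times. Ighm was nearly level at 1333 and 1425. In these filtered cells Cd79a was lower in the aged well, at 0.619 times the young sum, as were Cd79b at 0.704 times and Ighd at 0.693 times. The order for Cd79a depended on the filter. With high cells kept, it averaged 0.0545 and 0.0474 in aged control and antibiotic pools, against 0.0293 and 0.0379 in young ones. Cd79b and Ighd stayed lower in both aged groups with high cells kept. Among genes of the other constant regions, Ighg2b, an IgG heavy chain, was 21.7 times as high, from summed values of 171 in aged and 8 in young cells. The lambda light chain Iglc1 was 5.01 times as high, but Iglc2 was at 0.966 times and Iglc3 at 1.22 times the young sum. Igha summed to 1 in aged and 4 in young cells.

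The low Igkc values were spread over the aged classes. In these cells without high values, aged microglia had 804 Igkc per 1000 cells, BAM 611, Ly6CLow 733, Ly6CHigh 531, Ly6C+Ly6G+ 564, CD8+ 945, CD4+ 832 and ILCs 782. The range over classes was thus narrow beside the contrast between wells.

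Ratios to Igkc compare the make-up of these sums. In this comparison aged BCells are taken without the 2 immunoglobulin-rich cells among them. The rule for such cells uses Jchain and Igkc, so it shapes the Jchain ratio in them and in the BCells taken without them. Cells of other classes are taken without a high value of any member, while BCells keep theirs. That filter shapes the ratios of the other classes too, those of Cd79a, Mzb1 and Jchain included. For every 100 Igkc, Jchain summed to 0.115 in these aged BCells, 3.86 in the 15 immunoglobulin-rich cells and 3.49 in the aged cells of other classes without high values. Class by class, the aged low values had 1.61 (Ly6C+Ly6G+) to 5.83 (Ly6CHigh) Jchain per 100 Igkc, with 3.59 in microglia. With the 2 immunoglobulin-rich cells kept, aged BCells had 0.614 Jchain and 19.7 Cd79a per 100 Igkc. Cd79a showed the reverse order, with 25.3 in aged BCells, 0.292 in the 15 cells and 0.975 in the other aged cells. Ighd had 3.21, 0.00332 and 3.36, and Mzb1 5.97, 0.415 and 0.830. In young cells outside BCells, where Igkc was low, the same ratios were 4.20 for Jchain, 17.9 for Cd79a and 55.2 for Ighd.

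Not every gene kept 1 ratio. Ighm had 41.3 per 100 Igkc in the aged BCells and 29.2 in the 15 cells, but 180 in the other aged cells, from 50.5 in CD8+ to 206 in microglia. Cd79b had 14.5, 0.156 and 18.6. Ighg2b had 3.55 in the other aged cells and 0.163 in the aged BCells, and it was 0 in the 15 cells. Whether free RNA in the suspension gave these low values was not tested.

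**Figure D5:**
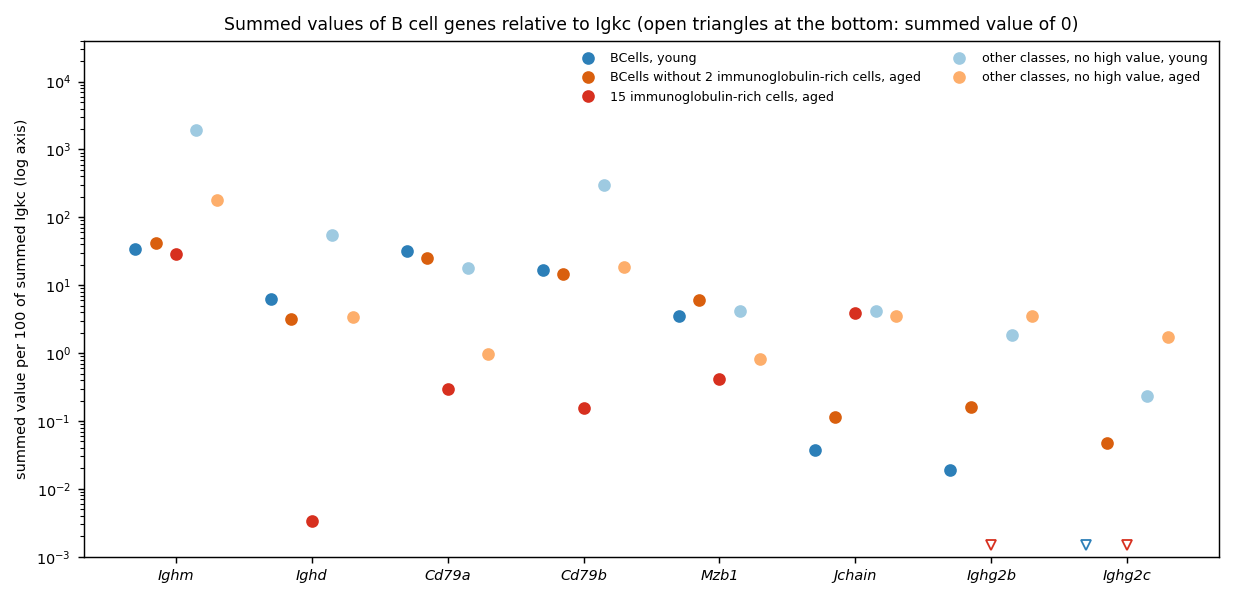
Summed corrected value of 8 genes per 100 Igkc (log axis) in BCells (aged BCells without their 2 immunoglobulin-rich cells), in the 15 immunoglobulin-rich aged cells and in cells of other classes without high values, by well; triangles mark a sum of 0. For Jchain the aged cells of other classes (3.49) lie near the 15 cells (3.86), while for Ighm (180) they lie above both BCells and the 15 cells. The young cells of other classes lie higher still for Jchain, though no young cell met the rule for the 15. That rule uses Jchain and Igkc, so it shapes their Jchain ratio. Leaving out high values in the other classes, but not in BCells, shapes the ratios of the other classes too.

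RNA of class-switched antibody was found mainly in the aged well. Ighg2b was above 0 in 154 aged cells (2.36%) and 9 young cells (0.138%), with a highest value of 6. Ighg2c was above 0 in 70 and 1 cells, Ighg3 in 29 and 0, and Igha, the IgA heavy chain, in 13 and 5. Most aged cells with Ighg2b or Ighg2c lay outside BCells, 145 of the 154 and 66 of the 70, with values of at most 6. Neither gene was above 0 in any immunoglobulin-rich cell. The 29 aged cells with Ighg3 were 15 BCells that were not immunoglobulin-rich, 6 immunoglobulin-rich cells and 8 others. In BCells, lambda light chain genes were common in both wells: Iglc1 was above 0 in 40.2% of young and 44.4% of aged cells, Iglc2 in 72.5% and 63.0%, and Iglc3 in 70.5% and 62.1%. The Iglc genes, and Ighg2b with Ighg2c, are near copies whose reads may have been split, so their separate values are uncertain.

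Likeness between genes was described over 18 points, 9 classes in each of 2 wells, which share their libraries and depth. With Cd79a, the other members had a Pearson r on the log2 scale of 0.99 (Ms4a1), 0.97 (Ebf1), 0.95 (Mzb1), 0.94 (Ighd), 0.93 (Cd79b), 0.85 (Ighm), 0.72 (Igkc) and 0.26 (Jchain). The genes outside the set most like Cd79a were Fcrla, Scd1, Pax5, Pou2af1 and Spib, each at 0.97. The most like Igkc were Iglc2 (0.81), A530040E14Rik (0.80), Gm38250 (0.80), Iglc3 (0.78) and C230035I16Rik (0.78), and those most like Jchain were AC191865.2 (0.92), Prg2 (0.87), D630008O14Rik (0.81), Igkv4-55 (0.78) and Gm15892 (0.75). Across single BCells, Cd79a went with Igkc at r 0.84 in 244 young and 0.80 in 243 aged cells, and with Cd79b at 0.84 and 0.88. Ighd was at 0.53 and 0.48, and Jchain at −0.02 and 0.02.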

How the data were processed

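CITE-seq libraries of 2 wells were analysed. The deposited RNA table holds a score per gene and cell, the value corrected by SCTransform as the authors' table name gives it. Raw UMI totals and antibody tags are deposited counts, and cell classes and hashtag calls are other labels by the authors. The submitters' processing notes list mm10, Cell Ranger 3.0.2 and Seurat 3.0.1. Which covariates that correction used is not stated in the sources at hand, and it can shift values in shallow cells. The corrected values sum to the SCT total in all 13052 cells and to the raw total in 62, so they were not used as counts. The exception was the thinning, which drew from each cell's corrected values as if they were counts. All cells were deposited as singlets, and no doublet caller was run. Of the metadata, 31 columns stayed unused.

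Pool means over cells were taken as log2(mean + 0.05), and fold changes are on that scale, which understates the change of low genes. Genes with a mean of at least 0.05 and pools with at least 10 cells were fitted with limma 3.58.1 (R 4.3.3, trended prior variance, 1 coefficient per group), with Benjamini-Hochberg adjustment over all genes within each of 5 contrasts and a threshold of 0.05. CD8+, ILCs and Ly6CHigh had 11 pools and Ly6C+Ly6G+ 9, and CD4+ and NKCells were not fitted. Pool shares were compared by two-sided exact permutation over 400 arrangements (scipy 1.17.1), with the unadjusted p read against all genes found in at least 5 cells and the adjustment made over those genes; the design table had planned it over the members alone. Both steps were tested on simulated data. Per the labels each pool combines separately processed brains, so p-values measure the spread between pools.

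The members, the lists and the rules were chosen with earlier results of these data known. Named genes were the members, up to 4 genes per list by mean level, up to 4 variable genes, up to 2 called genes per BCells contrast, and 5 genes most like each of Cd79a, Igkc and Jchain. Sdc1, Tnfrsf17, Ighg2b, Ighg2c, Igha, the called neutrophil genes and the variable genes of the immunoglobulin-rich cells were named after their values were seen. A share with a count of 0 is given with the limit of 3 cells, which covers counting error only. Alternatives covered the pseudocount, filters, depth, thinning, the definition of high, shared barcodes, a hashtag block and leaving out each pool.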

Additional observations from a re-analysis of the deposited data

How the results depend on the processing

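The alternatives that left out the 59 shared barcodes or the 15 immunoglobulin-rich cells, thinned the cells, used the same cut for low values in both wells, kept only BCells with at least 2 of 6 other B cell genes, or applied the 2000-UMI minimum to high values were chosen after seeing the data. Under every alternative run, pools left out included, the rise of Igkc in microglia and in ILCs kept a limma adjusted p under 0.05, and the higher shares of Igkc, Jchain and Mzb1 above 0 outside BCells an unadjusted exact p under 0.05; no share passed after adjustment over all genes. What a low corrected value holds is limited by depth, and the cause of the changes below was not tested.

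Counts of called genes by age moved in BCells (5) to 0 with no filter on low values, 14 with at least 2000 raw UMIs, 19 without shared barcodes and 30 in BCells with 2 or more other B cell genes. They moved in microglia (233) to 145 with no filter, in BAM (4) to 2 with a pseudocount of 0.5, in Ly6CLow (65) to 36 with no filter, 311 with log2 values per cell and 0 with at least 2000 UMIs, in Ly6CHigh (0) to 25 with log2 values per cell and 1 without the 15 cells, and in ILCs (76) to 42 with no filter. For antibiotics in microglia, 473 over both ages became 209 with no filter and 711 with at least 2000 UMIs, and 0 for the difference became 4 with log2 values per cell and 1 with at least 2000 UMIs.

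In BCells by age the sign turned, at no call, for Igkc (−0.085) and Cd79b (−0.035) with log2 values per cell, Cd79a (0.12) and Ms4a1 (0.24) with at least 2000 UMIs, and Ms4a1 (0.0037) in BCells with 2 or more other B cell genes, where Ebf1 (0.078) and Ms4a1 (0.10) turned for antibiotics. The unadjusted exact p of the Ighd share in BCells was no longer under 0.05 at −10.9 points with at least 2000 UMIs, −2.48 thinned and −15.5 with 2 or more other B cell genes, while that of the Mzb1 share fell under 0.05 at 16.5, 14.5 and 14.7, and of Jchain at 4.56 with at least 2000 UMIs. Members under 0.05 by age (1) became 3 for values of at least 2, namely Ighm, Ighd and Ebf1 (7.50% of all genes under 0.05). With at least 2000 UMIs they became 3, namely Igkc, Jchain and Mzb1 (10.6%). For antibiotics (1) they became 0 for values of at least 2 (2.95%), 0 with 20 cells per pool (not computed over all genes) and 2 without shared barcodes (3.37%). The early B cell share moved to 0.677 without shared barcodes.

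Outside BCells, shares by age moved for values of at least 2 in Ighd (−0.0225), Cd79a (0.281), Cd79b (−0.740) and Ebf1 (0.0997), and thinned in Ighd (−0.441), Cd79a (0.206) and Ms4a1 (−0.0136). From 5000 to 10000 UMIs Cd79a was at 0.00415 and Ebf1 at −0.816, and without cells with 3 or more of 6 B cell genes Ms4a1 was at −0.0741 and Ebf1 at −0.456. Members under 0.05 for antibiotics (0) became 2 for values of at least 2 (7.78% of all genes) and 2 without cells with 3 or more B cell genes (9.94%), and for the difference (0) 1 from 5000 to 10000 UMIs (3.72%), 1 without cells with 3 or more B cell genes (3.67%) and 1 without the 15 cells (3.66%). For high shares the unadjusted exact p was no longer under 0.05 for Igkc at 0.334 above the stricter percentile and 0.420 for values of at least 10, and for Mzb1 at 0.102 for at least 10, which left 1 of 3 members (21.3% of all genes).

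Leaving out each pool in turn gave 0 to 13 called genes by age in BCells, 103 to 242 in microglia, 3 to 13 in BAM, 19 to 297 in Ly6CLow, 0 to 3 in Ly6CHigh, 0 to 176 in CD8+ and 29 to 98 in ILCs, and for antibiotics in microglia 262 to 528 over both ages and 0 to 4 for the difference. In BCells by age the log2 difference ran from −0.013 to 0.77 for Igkc, −0.40 to 0.0079 for Cd79a, −0.18 to 0.38 for Cd79b and −0.44 to 0.14 for Ms4a1, and for antibiotics from −0.44 to 0.43 for Jchain and −0.32 to 0.042 for Ebf1. Igkc in microglia for antibiotics ran from −0.15 to 2.2e-05. Shares outside BCells by age ran from −1.23 to −0.785 for Ighd, −0.153 to 0.0526 for Cd79a, −0.0339 to 0.133 for Ms4a1 and −0.473 to −0.211 for Ebf1, with 0 to 2 members under 0.05 for antibiotics and 0 to 1 for the difference. High shares had 3 to 5 members under 0.05 by age, 0 to 1 for antibiotics and 0 to 1 for the difference. In BCells the Jchain share ran from 2.55 to 5.06, with 1 to 3 members by age and 0 to 3 for antibiotics, and the early and plasma cell gene shares from −2.04 to 2.40 and 6.59 to 13.7. The share of all genes under 0.05 was not computed with pools left out, so these counts of members have none beside them. With all pools it was 23.2% outside BCells, 15.9% for high values and 8.47% in BCells by age, and 9.75%, 4.9% and 2.98% for antibiotics.

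The hashtag numbers do not pair the pools: same-numbered pools of the 2 wells had correlated deviations over 0.1 in 0 of 6 pairs in BCells (−0.0101 to 0.0379) and 1 of 6 in microglia. With the number as a replicate block, genes called by age were 46 in BCells, 234 in microglia, 3 in BAM, 55 in Ly6CLow, 15 in Ly6CHigh, 2 in Ly6C+Ly6G+, 24 in CD8+ and 64 in ILCs, and for the difference of the antibiotic effect 2 in BCells and 3 in microglia. Under that block Igkc in CD8+ cells was 4.18 (limma adjusted p 0.0013) and Ighm in microglia 0.40 (adjusted p 0.016).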
